A study of Drosophila melanogaster with 24 samples.

Results

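The genes described are 10 Drosophila melanogaster immune genes: DptA, DptB, Drs, Drsl2, AttA, Mtk, Dro and IM33, which encode secreted peptides, upd3, which encodes a cytokine, and Tep4, which encodes a thioester-containing protein. A gene was given a locus of the RNA tables when at least 50% of the span they cover jointly was common to both in the Release 6 (dm6) RefSeq annotation. This left 8 of the 10 genes with a locus of their own among 10253 RNA loci. Drs and Mtk lie inside larger loci and are described by those loci only.

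RNA came from whole first-instar larvae, with 3 libraries for each of 4 genotypes. In all 4 genotypes the endogenous canonical histone genes were deleted and replaced by a transgene array of 12 copies. In canonical K9R larvae (H3.2-K9R) the array encoded H3 with arginine in place of lysine 9. H3.3 K9R larvae (H3.3-K9R_H3.2-HWT) had a wild-type array, no functional H3.3A, and the same lysine change in H3.3B, the other gene of the replacement variant H3.3. Combined K9R larvae (H3.3-K9R_H3.2-K9R) carried the H3.3 changes together with the K9R array. The control larvae (HWT) carried the wild-type array and intact H3.3 genes. No RNA group lacked H3.3A alone, so in these RNA data the loss of H3.3A and the lysine change in H3.3B cannot be told apart. FAIRE, a method that enriches nucleosome-depleted DNA, was run on third-instar wing discs of H3.3-K9R, H3.3A-null and H3.3B-K9R animals and from yw wild type, again with 3 libraries each. By its title, the series is about functional redundancy between the variant and the canonical histone at this lysine.

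In flies, bacterial and fungal infection switch on genes for small secreted peptides, mainly in the fat body, the insect counterpart of liver and adipose tissue. The Imd pathway senses peptidoglycan and acts through the NF-kappaB factor Relish. The Toll pathway acts through Dif and Dorsal. Diptericins, attacins and drosocin are textbook Imd outputs, and drosomycin is the textbook Toll output. Cytokines of the Unpaired family signal through the receptor Domeless and the JAK/STAT pathway, and upd3 is induced by wounding, infection and tissue stress. Thioester-containing proteins resemble vertebrate complement factors and circulate in the hemolymph. The labels name no infection, so the values describe larvae with no stated challenge.

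The deposited values are the authors' DESeq2 comparisons of each mutant with HWT, and no column held the value of a single library. Each gene is therefore given by its mean normalized count over the libraries of the assay, its log2 fold change with the authors' standard error (SE), and the adjusted p-value of DESeq2's Wald test, called under 0.05. The labels do not say that the 3 libraries of a genotype came from separate crosses, so the p-values measure the spread between these libraries, which may be technical. The median RNA locus had a mean normalized count of 108 in the authors' deposited tables, and depth per library is unknown. His3.3A, the gene lost in H3.3 K9R and combined K9R larvae, filled 34.2% of the joint span with its locus, too little for a locus of its own, so that its level does not check the labels. In whole larvae, fewer cells of a type and less RNA per cell cannot be told apart.

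The genes past the threshold were not the same in the 3 mutants. These immune genes were chosen with earlier results of these data known. The shares of them called, here and between mutants below, therefore do not measure an enrichment of immune genes. In H3.3 K9R larvae the wider immune lists, described further below, had 2 of 66 loci called, or 3.03%. In canonical K9R larvae 1 of 8 genes with an adjusted p-value was called, DptB, which was higher, against 3.55% of all loci tested, 3.04% higher and 0.505% lower, in the authors' deposited table. In H3.3 K9R larvae 5 of the 6 genes with an adjusted p-value were called, DptB and Drsl2 higher and IM33, upd3 and Tep4 lower, against 4.31% of all loci, 2.66% higher and 1.65% lower, in that deposited table. In combined K9R larvae 2 of 6 were called, Dro higher and IM33 lower, against 25.0% of all loci, 11.4% higher and 13.6% lower, in the authors' deposited table, so that this share lay near the background. At an unadjusted p under 0.05 the counts in the authors' deposited tables were 1, 6 and 2 of the 8 genes in canonical, H3.3 and combined K9R larvae. The median log2 fold change of the 8 genes, with or without an adjusted p, was 0.05, 0.15 and 0.16 in the same order of genotypes. Over all loci with an adjusted p it was −0.01, −0.01 and 0.00, computed from the authors' deposited tables.

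**Figure D1:**
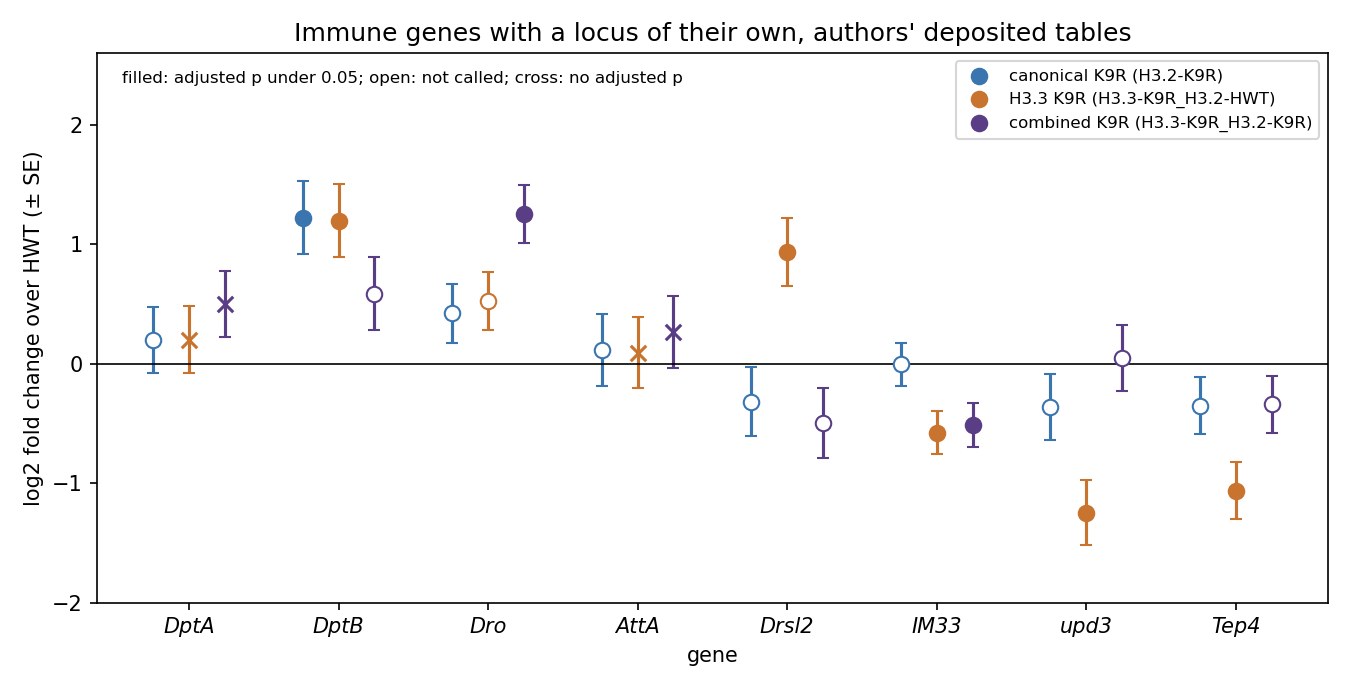
Log2 fold change over HWT (y axis) of the 8 immune genes with a locus of their own (x axis) in canonical, H3.3 and combined K9R larvae, from the authors' deposited tables; bars are the authors' standard errors, filled points have an adjusted p under 0.05, open points do not, and crosses have no adjusted p. The called points are DptB in canonical K9R, DptB, Drsl2, IM33, upd3 and Tep4 in H3.3 K9R, and Dro and IM33 in combined K9R.

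DptA and DptB are the diptericin genes, whose peptides act against Gram-negative bacteria. They lie next to each other on 2R with 1130 bases between them. DptA (chr2R:18865765-18866260) had a mean normalized count of 4.09 in the authors' deposited tables, or 8.24 per kilobase of locus, a level near that of AttA, at 7.85, and below those of the other 6 genes. Its log2 fold change in the authors' deposited table was 0.19 ± 0.28 in canonical K9R larvae (SE, DESeq2 adjusted p = 0.945). The authors' deposited tables list no adjusted p for it in the other mutants, where it stood at 0.20 ± 0.28 (H3.3 K9R) and 0.50 ± 0.28 (combined K9R larvae). The lowest mean count with an adjusted p was 7.60 in those deposited tables and 2.81 in that of canonical K9R, so that DptA fell below the first and above the second.

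The DptB locus (chr2R:18867391-18868167) had a mean normalized count of 31.8 in the authors' deposited tables and shared 65.0% of its joint span with DptB. It also holds CG43109, and the tables do not separate the reads of these neighbours. A required joint span of 80% would leave DptB without a locus. In canonical K9R larvae the locus rose 2.33-fold over HWT in the authors' deposited table (log2 1.22 ± 0.30, 95% interval 1.54 to 3.53-fold, DESeq2 adjusted p = 0.00271). H3.3 K9R larvae had a rise of much the same size, 2.29-fold in the authors' deposited table (log2 1.20 ± 0.30, 95% interval 1.51 to 3.46-fold, adjusted p = 0.00369). Combined K9R larvae, which carry both changes, showed log2 0.59 ± 0.31 in the authors' deposited table (adjusted p = 0.150), short of the threshold. DptB was the only one of the 8 genes called in canonical K9R larvae.

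Dro encodes drosocin, a proline-rich peptide against Gram-negative bacteria, and AttA encodes an attacin, a glycine-rich peptide with the same kind of target. Dro (chr2R:14745961-14746714) and AttA (chr2R:14747362-14748215) are neighbours with 647 bases between them. Dro had a mean normalized count of 50.8 in the authors' deposited tables and a positive fold change in every mutant. Its log2 fold change in the authors' deposited tables was 0.42 ± 0.25 in canonical K9R larvae (adjusted p = 0.659) and 0.53 ± 0.25 in H3.3 K9R larvae (adjusted p = 0.338, unadjusted p = 0.0326). In combined K9R larvae Dro rose 2.38-fold in the authors' deposited table (log2 1.25 ± 0.24, 95% interval 1.71 to 3.32-fold, DESeq2 adjusted p = 5.56e-06). That was the smallest adjusted p-value of any of the 8 genes in any of the 3 RNA tables. AttA, its neighbour, had a mean normalized count of 6.70 and log2 fold changes of 0.12 ± 0.30, 0.09 ± 0.30 and 0.27 ± 0.30 in canonical, H3.3 and combined K9R larvae in the authors' deposited tables. An adjusted p was listed for AttA in the canonical K9R table only, at 0.974. The next attacin gene, AttB, starts 1007 bases beyond AttA and shared 23.3% of the joint span with its locus, too little for a locus of its own.

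Drsl2 belongs to the drosomycin-like genes, whose products resemble the antifungal peptide drosomycin. Drsl2 (chr3L:3314349-3314681) had a mean normalized count of 24.7 in the authors' deposited tables. It rose 1.91-fold in H3.3 K9R larvae (log2 0.93 ± 0.28, 95% interval 1.30 to 2.81-fold, DESeq2 adjusted p = 0.0264 in the authors' deposited table). In the other mutants the authors' deposited tables gave negative values that were not called, −0.32 ± 0.29 in canonical K9R larvae (adjusted p = 0.884) and −0.49 ± 0.29 in combined K9R larvae (adjusted p = 0.217). Of the other drosomycin-like genes, Drsl1, Drsl3, Drsl4 and Drsl6 overlapped no RNA locus, and Drsl5 had a mean normalized count of 0.38 in the authors' deposited tables, with no adjusted p.

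IM33, named as an immune-induced molecule of the hemolymph, had the highest level of the 8 genes per length of locus. Its locus (chr2L:3696218-3696658) had a mean normalized count of 943 in the authors' deposited tables, or 2138 per kilobase, and the next highest, Drsl2, had 74.3 per kilobase. Below these came Dro with 67.4, Tep4 with 47.8, DptB with 40.9 and upd3 with 20.1 mean normalized counts per kilobase in those deposited tables. The length is the whole genomic span of a locus, not that of the transcript. It was 8.15 kilobases for Tep4 and 7.58 for upd3 against 0.333 for Drsl2, so this order may understate the long genes. IM33 fell in H3.3 K9R larvae to 0.670 of HWT (log2 −0.58 ± 0.18, 95% interval 0.524 to 0.856, DESeq2 adjusted p = 0.0346 in the authors' deposited table). A fall of like size was seen in combined K9R larvae, to 0.701 of HWT in the authors' deposited table (log2 −0.51 ± 0.18, 95% interval 0.548 to 0.897, adjusted p = 0.0237). In canonical K9R larvae it stood at −0.01 ± 0.18 in the authors' deposited table (adjusted p = 0.999). IM33 was the only peptide gene of the 8 called lower in any mutant.

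Drs and Mtk, the genes of the antifungal peptides drosomycin and metchnikowin, could not be measured on their own. Drs fills 8.26% of the joint span with its locus (chr3L:3369484-3374170), which holds Ythdc1 as well. That locus was higher in combined K9R larvae in the authors' deposited table (log2 0.55 ± 0.14, DESeq2 adjusted p = 0.000459), and stood at 0.02 ± 0.14 in canonical K9R and 0.00 ± 0.14 in H3.3 K9R. Which of these genes the rise belongs to cannot be told apart from the tables. Mtk fills 0.379% of the joint span with a locus of 70.8 kilobases (chr2R:15401080-15471884) that also holds Stacl, lncRNA:CR45020, CG30472 and CG34188. The Mtk locus was called in none of the mutants, at 0.18 ± 0.17, 0.12 ± 0.17 and 0.30 ± 0.17 in canonical, H3.3 and combined K9R larvae in the authors' deposited tables, with unadjusted p-values of 0.292, 0.475 and 0.0870.

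upd3 encodes the Unpaired cytokine most tied to stress and immunity. Its locus (chrX:18277019-18284596) matched the gene over 97.2% of the joint span and had a mean normalized count of 152 in the authors' deposited tables. In H3.3 K9R larvae upd3 fell to 0.422 of HWT (log2 −1.25 ± 0.28, 95% interval 0.290 to 0.613, DESeq2 adjusted p = 0.000367 in the authors' deposited table). It was called in neither of the other mutants, with −0.36 ± 0.27 in canonical K9R larvae (adjusted p = 0.809) and 0.05 ± 0.27 in combined K9R larvae (adjusted p = 0.928) in the authors' deposited tables. The Unpaired genes lie together on the X, with upd2 33948 bases to one side of upd3 and upd1 20757 bases to the other. For upd1, with a mean normalized count of 4.98, the authors' deposited tables gave 0.08 ± 0.23, 0.04 ± 0.23 and −0.13 ± 0.23 in canonical, H3.3 and combined K9R larvae, none of them called. The upd2 locus, at a mean normalized count of 29.1, had values of −0.80 ± 0.30, −0.85 ± 0.30 and −0.46 ± 0.30 in canonical, H3.3 and combined K9R larvae. The authors' deposited tables list no p-value for upd2 in any mutant, so these values could not be called. A single library may drive them, which cannot be checked without values per library.

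Tep4 is a secreted thioester-containing protein made in blood cells and fat body. Its locus (chr2L:19548334-19556481) matched the gene over 97.5% of the joint span and had a mean normalized count of 390 in the authors' deposited tables. Tep4 fell in H3.3 K9R larvae to 0.478 of HWT (log2 −1.06 ± 0.24, 95% interval 0.346 to 0.661, DESeq2 adjusted p = 0.000464 in the authors' deposited table). Canonical and combined K9R larvae had nearly equal values that were not called, −0.35 ± 0.24 (adjusted p = 0.748) and −0.34 ± 0.24 (adjusted p = 0.312) in the authors' deposited tables. Its relatives were not called in any mutant. In canonical, H3.3 and combined K9R larvae Tep2 stood at −0.19 ± 0.21, 0.08 ± 0.21 and 0.31 ± 0.21 and Tep3 at −0.01 ± 0.19, 0.21 ± 0.18 and 0.17 ± 0.19 in the authors' deposited tables. Tep1 had a mean normalized count of 1.89 and no adjusted p there.

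A level for each genotype was worked out from the authors' mean count and the 3 fold changes, on the assumption that the mean covers all 4 genotypes equally. The fold changes appear to be shrunken towards 0, so these levels are approximate and carry no error. In canonical, H3.3 and combined K9R larvae and then HWT larvae, DptB stood at 41.6, 40.9, 26.8 and 17.9 normalized counts. Dro stood at 44.2, 47.5, 78.6 and 33.0 in the same order, and Drsl2 at 18.0, 42.8, 15.9 and 22.4. HWT had the lowest level of DptB and Dro, whereas for Drsl2 it lay between the H3.3 K9R level and those of the other mutants. IM33 stood at 1115, 751, 786 and 1121, which puts canonical K9R beside HWT and the mutants of H3.3 below them. For upd3 the levels were 147, 79.5, 195 and 189, and for Tep4 400, 244, 403 and 511, with H3.3 K9R lowest for both.

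**Figure D2:**
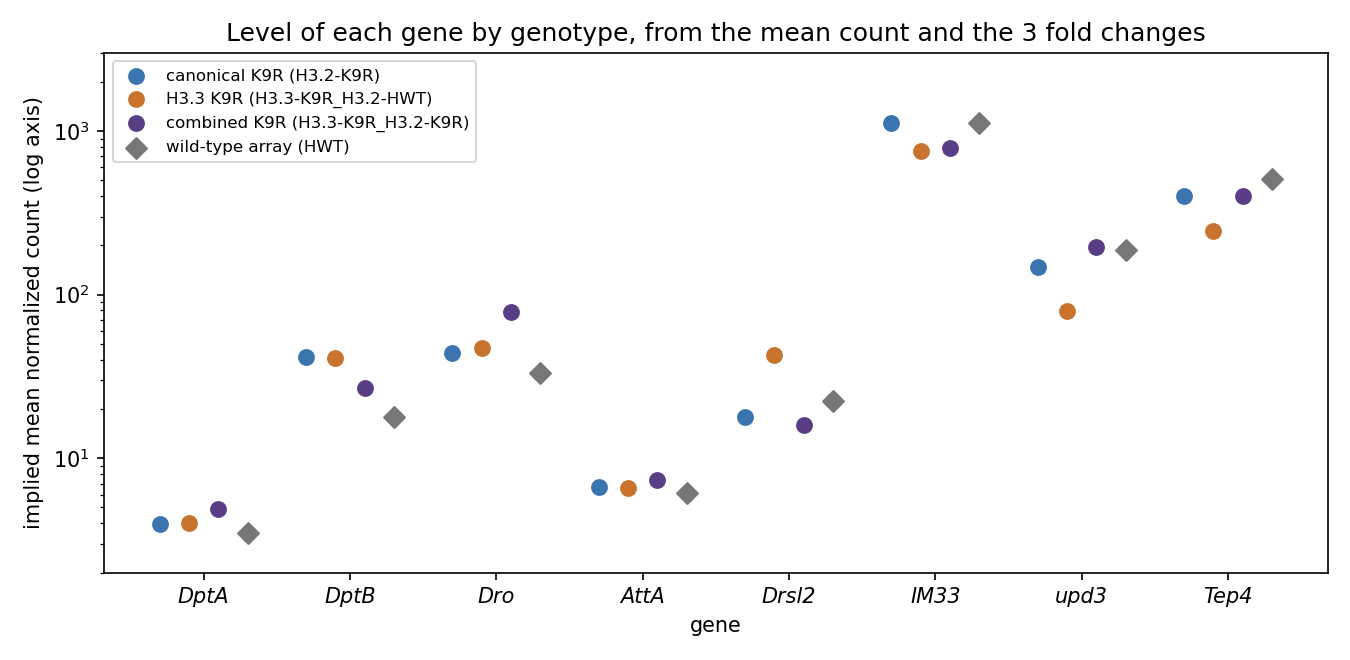
Level of each immune gene (x axis) by genotype, as a normalized count on a log axis, computed from the authors' mean count and fold changes and shown without error bars because no value per library was used here. The levels run between 3.47 for DptA in HWT larvae and 1121 for IM33 in HWT larvae, and H3.3 K9R is lowest for upd3 (79.5) and Tep4 (244).

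Whether the mutants differ from each other was tested per locus as the difference of the deposited log2 fold changes over the root of their summed squared standard errors, two-sided, by a normal approximation and adjusted over 7634 loci. The comparisons share the HWT libraries, which makes this error too large. DptA and AttA, without an adjusted p in every table, stayed out. Between combined and H3.3 K9R larvae 2 of 6 genes differed, against 5.21% of loci. Drsl2 was lower in combined K9R by −1.43 ± 0.41 on the log2 scale (95% interval −2.23 to −0.63, adjusted p = 0.0142). upd3 was higher in combined K9R by 1.29 ± 0.39 (95% interval 0.53 to 2.05, adjusted p = 0.0231). So the genes for which adding the canonical change to the H3.3 change gave a tested difference were a peptide gene that was higher in H3.3 K9R and a cytokine gene that was lower there.

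The same difference for Tep4 was 0.72 ± 0.34 (95% interval 0.06 to 1.38, adjusted p = 0.245) and for Dro 0.73 ± 0.35 (95% interval 0.05 to 1.41, adjusted p = 0.260), neither past the threshold. For IM33 it was 0.07 ± 0.26 (95% interval −0.44 to 0.57, adjusted p = 0.940), and for DptB −0.61 ± 0.43 (95% interval −1.45 to 0.24, adjusted p = 0.542). Between combined and canonical K9R larvae 0 of 6 genes passed, against 2.23% of loci, with 2 at an unadjusted p under 0.05. These were Dro, at 0.83 ± 0.35 (95% interval 0.15 to 1.52, adjusted p = 0.294), and IM33, at −0.51 ± 0.26 (95% interval −1.01 to −0.00398, adjusted p = 0.477). Between H3.3 and canonical K9R larvae 0 of 6 passed as well, against 1.61% of loci, and 4 had an unadjusted p under 0.05. The widest of these differences was Drsl2, at 1.25 ± 0.41 (95% interval 0.46 to 2.05, adjusted p = 0.0997). It was followed by upd3 at −0.88 ± 0.39 (adjusted p = 0.534), Tep4 at −0.71 ± 0.34 (adjusted p = 0.674) and IM33 at −0.57 ± 0.26 (adjusted p = 0.560). So the calls in H3.3 K9R larvae and their absence in canonical K9R larvae do not by themselves show that these mutants differ. With the shared control removed from the error, taken as 50% of the smaller squared standard error, Drsl2 (adjusted p = 0.000796), upd3 (adjusted p = 0.0311) and IM33 (adjusted p = 0.0351) passed between H3.3 and canonical K9R larvae. Under that error Dro (adjusted p = 0.0141) passed between combined and canonical K9R. Tep4 (adjusted p = 0.0188) and Dro (adjusted p = 0.0227) then joined Drsl2 and upd3 between combined and H3.3 K9R.

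The combined genotype was also set beside the sum of the log2 fold changes of canonical and H3.3 K9R, which is what independent effects on this scale would give. For Dro the combined value of 1.25 lay 0.31 ± 0.43 above the sum of 0.95, and for IM33 the combined −0.51 lay 0.07 ± 0.31 above the sum of −0.58. For DptB the combined value of 0.59 lay under the sum of 2.42 by −1.83 ± 0.53 (95% interval −2.86 to −0.80, unadjusted p = 0.000526, adjusted p = 0.147). For upd3 the combined value of 0.05 lay over the sum of −1.61 by 1.65 ± 0.48 (95% interval 0.72 to 2.59, unadjusted p = 0.000505, adjusted p = 0.147). Tep4 departed by 1.07 ± 0.41 (adjusted p = 0.537) and Drsl2 by −1.11 ± 0.50 (adjusted p = 0.807). No departure passed over all 7634 loci, of which 0.21% did, while 4 of the 6 genes had an unadjusted p under 0.05. With the shared control removed from the error, upd3 (adjusted p = 0.00636) and DptB (adjusted p = 0.00637) passed.

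**Figure D3:**
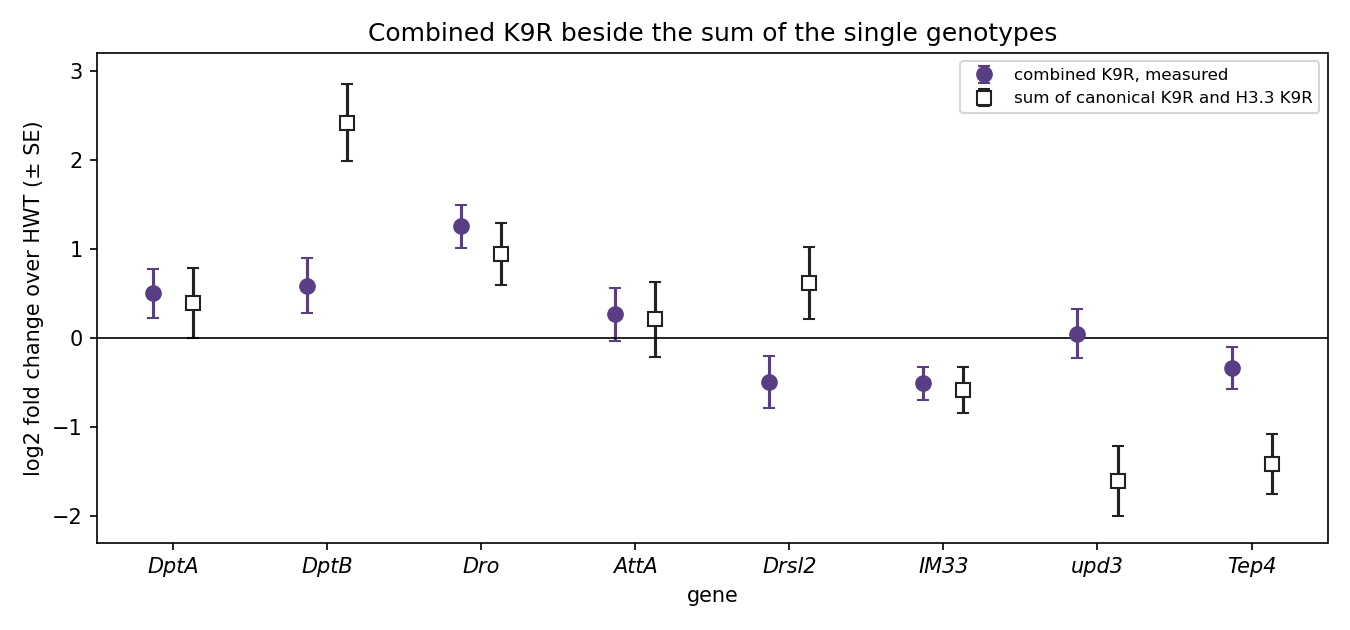
Log2 fold change over HWT (y axis) of the 8 immune genes (x axis) in combined K9R larvae as measured by the authors (filled points) and as the sum of the canonical and H3.3 K9R values (open squares); bars are standard errors, those of the sum being the root of the summed squares. The points lie close together for Dro and IM33 and apart for DptB (0.59 and 2.42), upd3 (0.05 and −1.61), Drsl2 (−0.49 and 0.62) and Tep4 (−0.34 and −1.41).

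The remaining immune genes were described through 8 lists of 145 genes, of which 83 had a locus of their own. In canonical K9R larvae 0 of 68 loci with an adjusted p were called by DESeq2 in the authors' deposited table, with 1 at an unadjusted p under 0.05. H3.3 K9R larvae had 1 higher and 1 lower of 66, or 3.03%, and combined K9R larvae 4 higher and 0 lower of 66, or 6.06%, in the authors' deposited tables. Over all loci these tables called 3.55%, 4.31% and 25.0% in canonical, H3.3 and combined K9R larvae, and the shares of the wider immune set lay below these in each mutant, a difference that was not tested. Its median log2 fold change over all 83 loci, those without an adjusted p included, was 0.00, −0.01 and 0.07 in the same order.

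Among the other antimicrobial peptides 18 of 34 genes had a locus, 9 of them with a mean count under 10. In canonical, H3.3 and combined K9R larvae 11, 10 and 10 of these loci had an adjusted p, so the rest could not be called. The called one was Listericin, a peptide gene downstream of JAK/STAT and Imd. The authors' deposited table gave it at 0.80 ± 0.29 in combined K9R (DESeq2 adjusted p = 0.0289). No called locus was found among the 13 of 26 genes of the Imd pathway, with 0, 0 and 1 at an unadjusted p under 0.05 in canonical, H3.3 and combined K9R larvae in the authors' deposited tables. Its negative regulator pirk, at a mean normalized count of 218, stood at −0.18 ± 0.24, −0.83 ± 0.24 and −0.92 ± 0.24 in that order. The authors' deposited tables list no p-value for pirk in any mutant, so these values could not be called. Whether a single library drives them cannot be seen without values per library. The Toll pathway had 14 of 20 genes with a locus. Hayan, a serine protease of the Toll and melanization cascades, rose by 0.46 ± 0.14 in H3.3 K9R larvae (adjusted p = 0.0331) and by 0.83 ± 0.14 with both changes combined (adjusted p = 1.66e-07), per the authors' deposited tables. Pli, a regulator of the Toll kinase Pelle, rose in combined K9R larvae (0.64 ± 0.14, adjusted p = 3.74e-05 in the authors' deposited table).

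In the JAK/STAT list, the pathway that upd3 feeds, 12 of 17 genes had a locus. The called one was the locus of Ptp61F, a phosphatase acting on the pathway, which the authors' deposited table gave at 0.39 ± 0.12 in combined K9R (adjusted p = 0.00939) and which holds 19 other genes. In the authors' deposited table of H3.3 K9R the receptor dome stood at −0.21 ± 0.10 (adjusted p = 0.402) and the feedback inhibitor Socs36E at −0.30 ± 0.13 (adjusted p = 0.239), neither called. Among 8 of 13 genes of JNK stress signalling, kay, which encodes the fly Fos, fell in H3.3 K9R larvae (−0.35 ± 0.10, adjusted p = 0.0218 in the authors' deposited table). In the lists of thioester and phagocytic proteins (11 of 16 genes) and melanization (6 of 12) DESeq2 called no locus in any mutant in the authors' deposited tables, with 1 and 0 loci at an unadjusted p under 0.05, that 1 in combined K9R. Of the lysozymes 1 of 7 had a locus, LysX, which could not be called, since the authors' deposited tables list no adjusted p for it at a mean normalized count of 0.73. The other 6 lie with mwh, meep, CG9119 and CG33965 in a locus (chr3L:1200786-1234015) that was lower in H3.3 K9R larvae (−0.64 ± 0.16, adjusted p = 0.00223) and in combined K9R larvae (−1.32 ± 0.16, adjusted p = 6.14e-15), per the authors' deposited tables.

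Markers of tissues that make or respond to these products were set beside the immune genes as a description. Of the hemocyte markers, genes of the fly's blood cells, 8 of 10 had a locus, and Hml was higher in H3.3 K9R larvae (0.52 ± 0.15, adjusted p = 0.0201 in the authors' deposited table), the mutant with the lower upd3 and Tep4. The summed level of the 8 was 4027 in canonical, 4282 in H3.3 and 4081 in combined K9R larvae against 3967 in HWT. Without Hml it was 2915, 2806 and 2938 against 2937 in HWT, and the list's medians were −0.09, −0.05 and −0.17 in the authors' deposited tables. Most of the sum without Hml was the ush locus, at a mean normalized count of 1949, which also holds MED15, cbt and CG4297. NimC1 and eater, at 24.6 and 29.8, added little, so this sum says little about the number of hemocytes. Of the fat body markers 8 of 10 had a locus, 5 of them with a mean count under 10. Among them apolpp, whose locus also holds Zyx, was higher in H3.3 K9R (0.62 ± 0.17, adjusted p = 0.00890) and Lsd-1 lower in combined K9R (−0.88 ± 0.23, adjusted p = 0.00155) in the authors' deposited tables. The summed level of the fat body markers was 10419, 14781 and 10657 in canonical, H3.3 and combined K9R larvae against 10500 in HWT. Without the apolpp locus it was 3317, 3351 and 3645 against 3055 in HWT, and the list's medians were 0.13, 0.04 and −0.01 in the authors' deposited tables. Nearly all of that remaining sum was Lpin, at a mean normalized count of 3220, followed by Lsd-1 at 102. It therefore stands for Lpin more than for the fat body. Midgut markers, mostly digestive enzymes, had 0, 2 and 6 of 11 loci called lower in canonical, H3.3 and combined K9R larvae, with medians of −0.09, −0.30 and −0.64 in the authors' deposited tables. Their summed level was 28780, 24275 and 18948 against 30694 in HWT. Tracheal markers had tyn higher (0.39 ± 0.13, adjusted p = 0.0152) and serp lower (−0.54 ± 0.18, adjusted p = 0.0135) in combined K9R, and of 3 crystal cell and lamellocyte loci peb was lower in H3.3 K9R (−0.40 ± 0.11, adjusted p = 0.0113), all in the authors' deposited tables. The part of these tissues in the values of the immune genes was not tested.

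**Figure D4:**
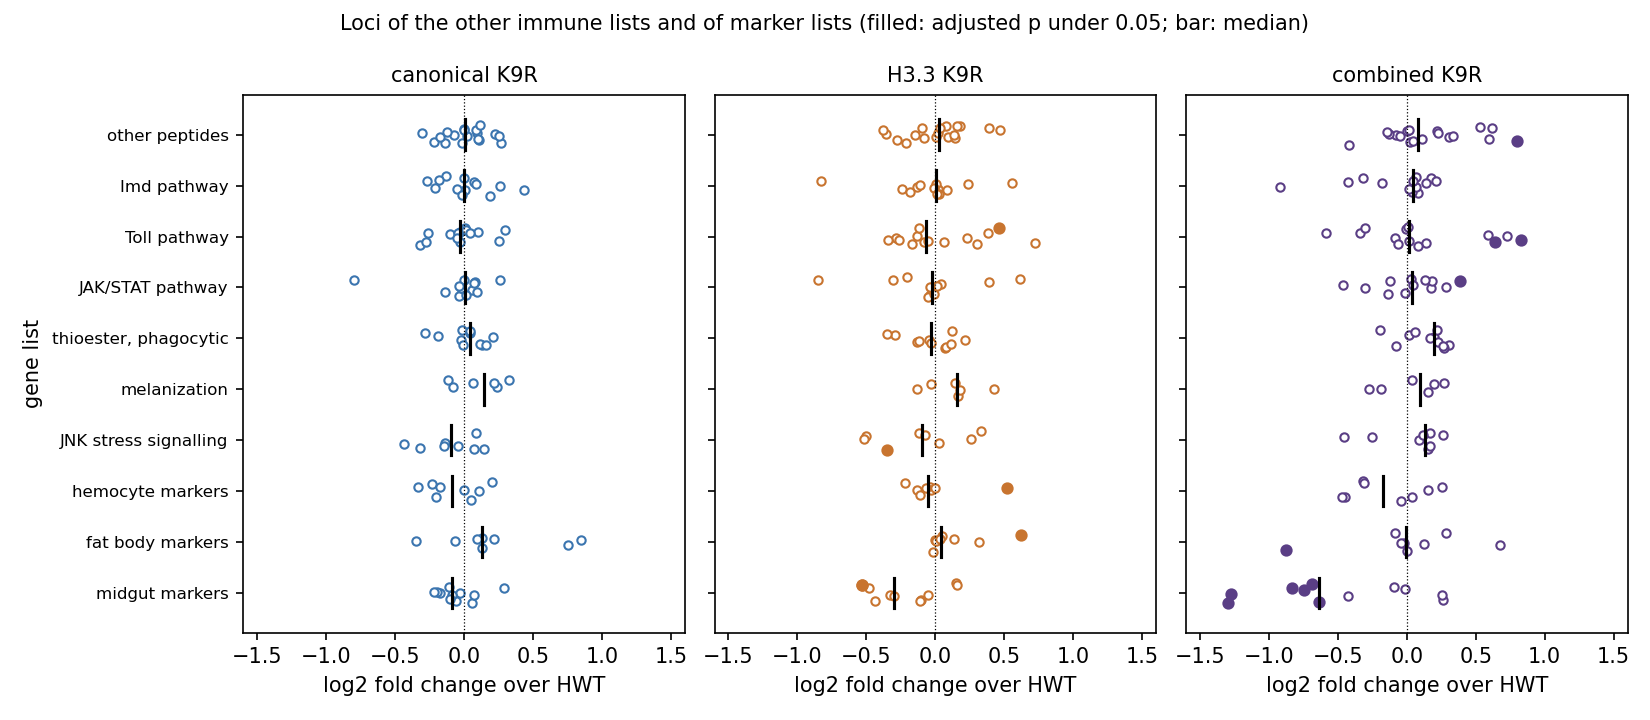
Log2 fold change over HWT (x axis) of the loci of 7 further immune gene lists and 3 marker lists (y axis) in canonical, H3.3 and combined K9R larvae, from the authors' deposited tables; each point is a locus, filled points have an adjusted p under 0.05, and vertical bars are list medians. The immune lists centre near 0 with 0, 2 and 4 loci called, while the midgut markers sit below 0 in combined K9R (median −0.64, 6 of 11 lower).

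For each called gene the loci with the nearest pattern were those with the smallest distance over the 3 log2 fold changes, among 7022 loci named by other genes. The nearest to Tep4 was Ets21C, which encodes an ETS transcription factor, at −0.41, −1.08 and −0.32 in canonical, H3.3 and combined K9R larvae in the authors' deposited tables (distance 0.0665). The nearest to upd3 were Hsp70Bbb and Hsp70Bb, heat shock genes with near-identical copies, which may share reads. Hsp70Bbb stood at −0.53, −1.12 and −0.27 in canonical, H3.3 and combined K9R larvae (distance 0.383) in the authors' deposited tables. IM33 lay closest to CG31789 (distance 0.0342) and Uch (distance 0.0610), and Drsl2 to CG13560 (distance 0.343) and CG5892 (distance 0.356). Dro lay closest to CG17684 (chr2R:1866080-2262133, distance 0.241) and CG41520 (chr2R:1649061-1778937, distance 0.253), long loci of mean normalized counts 15505 and 6860 in the authors' deposited tables. Nearest to DptB were Su(Ste):CR45794 on the Y (distance 0.327) and CG4744 (distance 0.439). The CG4744 locus (chr2R:13393705-13399368) also holds AttC, another attacin gene, over 17.0% of the joint span, and its values were 1.09, 0.84 and 0.36 in canonical, H3.3 and combined K9R larvae in the authors' deposited tables. The distances are a description over 3 comparisons that share the HWT libraries.

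In wing discs, only upd3 and Tep4 had FAIRE regions within 1000 bases, with 2 regions each, all overlapping the gene. The regions at upd3 (chrX:18277075-18277379 and chrX:18282375-18282662) had mean normalized counts of 68.0 and 67.5, and those at Tep4 (chr2L:19548232-19548548 and chr2L:19549343-19550009) had 99.5 and 239, against a median of 85.9 over all regions in the authors' deposited tables. In H3.3-K9R discs over wild type, the changes at upd3 were −0.10 ± 0.17 and −0.16 ± 0.18 and those at Tep4 −0.18 ± 0.16 and 0.20 ± 0.12 in the authors' deposited table, none called. Over the 4 FAIRE comparisons 0 of 16 tests at these regions were called by DESeq2 in the authors' deposited tables, and 1 had an unadjusted p under 0.05, the second upd3 region in the H3.3A null (−0.36 ± 0.18, adjusted p = 0.300). Across all regions 8.8%, 6.53%, 7.92% and 6.5% were called in H3.3A null over wild type, H3.3B-K9R over wild type, H3.3-K9R over wild type and H3.3-K9R over H3.3A null. For the other 8 genes the nearest region lay between 3362 bases away, at IM33, and 27411 bases away, at Mtk. The discs come from another stage and from genotypes with their own canonical histone genes, so the FAIRE values stand beside the RNA values with no test between them.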

How the data were processed

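The values analysed were the authors' DESeq2 tables, 3 for RNA (10253 loci) and 4 for FAIRE (19738 regions), on dm6. Per the file headers, each holds a deposited mean of normalized counts, a signal never below 0, and a log2 fold change with its standard error. Per the file headers, it also holds the Wald statistic, a score, and the p-value and adjusted p-value as the authors deposited them. Tools listed without a role in the submitters' processing notes were TopHat2 2.1.1, Bowtie2 2.3.2, SAMtools 1.5, Cufflinks 2.1.1, MACS2, bedtools 2.2.25.0 and DESeq2. Standard errors had an upper limit of 0.306 in RNA, and 850 of 1392 loci with a mean count under 1 had an error under 0.1, as shrinkage towards 0 gives, so low genes may be understated. How strand and multiply mapping reads were treated was not given in the sources used here. Loci were matched to RefSeq Release 6 genes by joint span, with positions 1-based, and 9567 were named. A missing adjusted p was kept as missing.

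Computed here, with Python 3.11.15, pandas 2.3.3, numpy 2.4.6 and scipy 1.17.1, were folds with 95% intervals, implied levels, differences between comparisons (tested on simulated data first), counts over 13 lists of 191 genes, and distances between patterns. Named genes were all members, called list genes, family neighbours, and the 2 nearest loci of each called member. The members, lists and tests were chosen with earlier results of these data known. Alternatives were a joint span of 80%, thresholds of 0.01 and of an absolute log2 fold change of 1, a mean count of at least 10, centring, and an error without the shared control.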

Additional observations from a re-analysis of the deposited data

How the results depend on the processing

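Most counts kept within 1.5 times their reported value: 35 of 45 did, and of 170 values for single genes 154 kept their direction and call, 8 lost the call, 8 gained it and 0 reversed. Some of these could not change, since a value not called under 0.05 stays uncalled under a stricter threshold, as does a count of 0. The totals therefore overstate how firm the calls are. With a joint span of 80% the count of called genes in canonical K9R larvae was 0, because the DptB locus then had no gene. Under an adjusted p of 0.01 the counts were 3 for H3.3 K9R, 1 for combined K9R and 0 for combined minus H3.3 K9R. Where a log2 change of at least 1 either way was also asked for, they were 3 for H3.3 K9R and 1 for combined K9R. With the shared control removed from the error, the counts of differing genes were 3 for H3.3 minus canonical, 1 for combined minus canonical, 4 for combined minus H3.3, and 2 for combined minus the sum. The share of 50% was assumed for RNA, and its median computed from the FAIRE tables was 52.5%. No paired analysis was possible because the tables hold no values of single libraries, and no library could be left out for the same reason. DptA and AttA, at mean normalized counts of 4.09 and 6.70 in the authors' deposited tables, had no adjusted p in H3.3 and combined K9R larvae, and what depth limits is unknown without values per library.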

Other observations

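Listed immune genes without a locus of their own lay in 44 larger loci, which hold other genes as well and were left out of the lists. Of the 43 with an adjusted p, 1 was higher and 0 lower in canonical K9R larvae, 0 higher and 2 lower in H3.3 K9R, and 4 higher and 7 lower in combined K9R, in the authors' deposited tables. That is 2.33%, 4.65% and 25.6%, near the shares over all loci. Which gene of such a locus moved cannot be told apart, and the loci named next were chosen after their values were seen. The locus of PGRP-SC1a and PGRP-SC1b (chr2R:8709733-8715094), amidases that degrade peptidoglycan in the gut, also holds CG14743 and had a mean normalized count of 3659 in the authors' deposited tables. It stood at −0.05 ± 0.27 in canonical K9R larvae and fell by 1.68 on the log2 scale in H3.3 K9R (DESeq2 adjusted p = 4.04e-08) and by 2.43 in combined K9R (adjusted p = 4.86e-18) in the authors' deposited tables. These are the mutants in which 2 and 6 of 11 midgut markers were lower, and the part of the midgut in these values was not tested.

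In combined K9R the lower loci also included those that hold the Imd genes imd (−0.56 ± 0.14, adjusted p = 0.000723), Fadd (−0.90 ± 0.17, adjusted p = 1.34e-06) and Dredd (−0.81 ± 0.22, adjusted p = 0.00198), in the authors' deposited table. These genes fill 31.5%, 25.1% and 33.3% of the joint span with loci that also hold other genes. The remaining lower loci were those of modSP, et and the lysozymes. The higher loci in combined K9R were those of edin (0.52 ± 0.15, adjusted p = 0.00498), nec (0.45 ± 0.11, adjusted p = 0.000331), hep (0.43 ± 0.14, adjusted p = 0.0123) and NimC4 (0.40 ± 0.14, adjusted p = 0.0233), in the authors' deposited table. The AttC and CG4744 locus was called in canonical K9R (1.09 ± 0.30, adjusted p = 0.0128) and not in H3.3 K9R (0.84 ± 0.30, adjusted p = 0.104) in the authors' deposited tables, whereas DptB was called in both. These calls alone do not show that the mutants differ at the AttC and CG4744 locus, or that this locus differs from DptB.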
